A study of Mus musculus with 4 samples.

Results

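The 3 D cyclin genes (Ccnd1, Ccnd2 and Ccnd3), 5 genes of cyclin-dependent kinase (CDK) inhibitors (Cdkn1a, Cdkn1b, Cdkn1c, Cdkn2a and Cdkn2b), Trp53 and Mdm2 were followed across 4 RNA sequencing libraries of liver cells. They were chosen by name, as the rows of the gene count table whose Ensembl identifiers belong to these symbols, and all 10 were found among 41128 genes. All mice were C57BL/6 in a model of alcoholic hepatitis: 40% of their calories came from freely taken food high in cholesterol and fat, 60% from alcohol-containing liquid given into the stomach, and a weekly binge was added. No mice without this treatment were among the libraries used here, so every group shares it. Hepatocytes were depleted by centrifugation and CD45+ leukocytes by magnetic beads, which gave the presorted CD45- cells. From these, flow sorting on prominin-1 (Prom1), integrin alpha 6 (CD49f) and the leukocyte antigen CD45 gave Prom1+CD49f+CD45- cells, Prom1-CD49f+CD45- cells and a population labelled Prom1+CD49f+CD45+. Every population had 1 library, made from the pooled RNA of 2 mice, so there is no spread between replicates and no test, and no age or sex of the mice is stated in the labels.

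Summed gene counts ran from 14670239 to 52293939 per library. Levels are TMM-scaled CPM, counts relative to a library size corrected by the trimmed mean of M values, with exact 95% Poisson intervals. A ratio of 2 libraries carries an exact 95% binomial interval. Both kinds of interval cover counting error only, and molecules were not told apart by identifiers. The word called marks a gene whose whole interval lay beyond 2-fold. In values given without names, the order is Prom1+CD49f+CD45- first, then Prom1-CD49f+CD45-, then the library labelled Prom1+CD49f+CD45+, then presorted CD45-. Transcripts of the sorted proteins did not all follow the labels. Prom1 was at 355, 31.1, 11.4 and 67.2 TMM-scaled CPM, Ptprc, the gene of CD45, at 6.33, 3.60, 14.5 and 21.0 and Itga6, the gene of CD49f, at 72.8, 50.5, 127 and 110. The library labelled Prom1+CD49f+CD45+ thus held less Prom1 and Ptprc than the presorted cells and is named by its label. Both CD49f+CD45- libraries held less Itga6 than the presorted cells, called for the Prom1-CD49f+CD45- cells. Bile duct (cholangiocyte) markers, 15 genes, summed to 26440, 10040, 466 and 4303 scaled CPM, and 15 endothelial markers to 184, 9290, 20390 and 15054, with no marker of either list at 0 in any library.

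D cyclins are the regulatory subunits that activate CDK4 and CDK6 in response to growth signals, which leads to phosphorylation of the retinoblastoma protein and entry into S phase. Inhibitors of the INK4 family bind CDK4 and CDK6, while those of the CIP/KIP family bind several cyclin-CDK complexes. The transcription factor p53, encoded by Trp53, induces the CIP/KIP inhibitor p21 and also Mdm2, the ubiquitin ligase that leads p53 to degradation. In injured liver these genes are studied in the regrowth of hepatocytes and bile duct cells and in senescence.

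In the Prom1+CD49f+CD45- cells Ccnd1 was the highest of the 4 libraries, and Ccnd3, Cdkn1a and Cdkn1c were the lowest. Of the 9 genes that reached 10 counts in at least 1 library, 4 were called against the Prom1-CD49f+CD45- cells. By the same rule 28.2% of 21640 genes were called in that comparison. Ccnd1 was the 1 called higher (15.5% of all genes), and Ccnd3, Cdkn1a and Cdkn1c were the 3 called lower (12.8%). The widest of these differences was in Cdkn1c, 10.0-fold lower. Trp53 and Mdm2 themselves differed by less than 2-fold between any pair of libraries. Cdkn2a did not reach the minimum count.

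**Figure D1:**
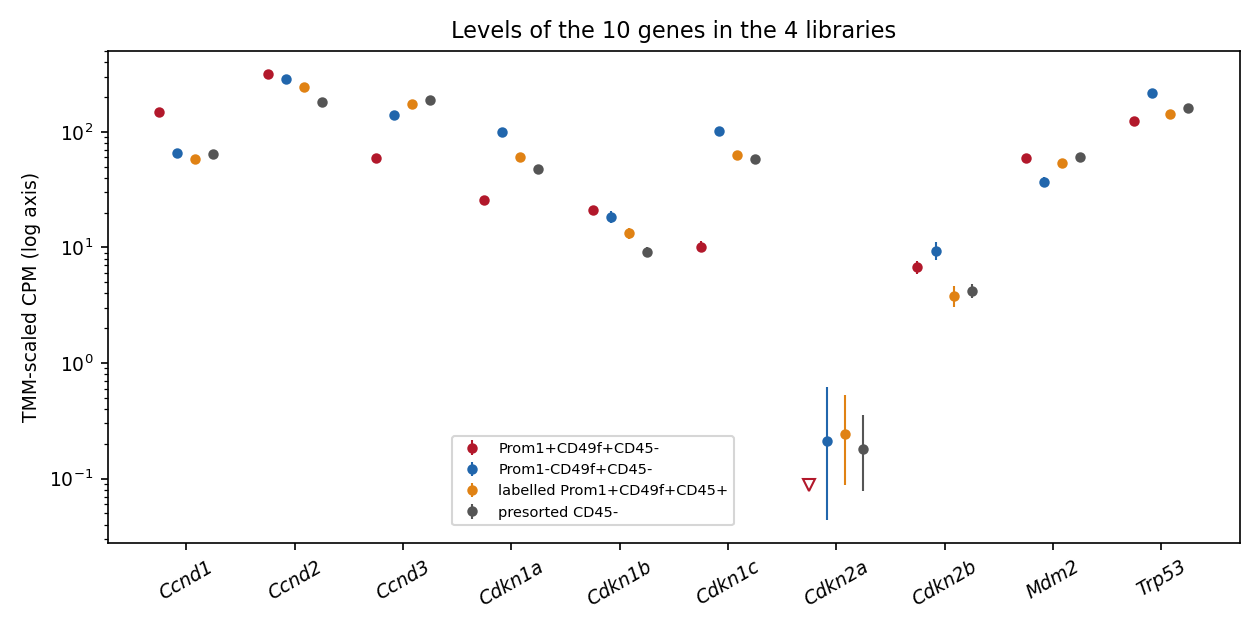
TMM-scaled CPM (log axis) of each of the 10 genes in the 4 libraries, with exact 95% Poisson intervals for counting error; the open triangle marks the level that 3 counts would give, drawn where Cdkn2a had none. Ccnd3, Cdkn1a and Cdkn1c lie lowest in the Prom1+CD49f+CD45- library, at 59.1, 25.6 and 10.1, and Ccnd1 lies highest there, at 146.8.

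Ccnd1 (ENSMUSG00000070348; mm10 chromosome 7, 144929931 to 144939925, minus strand) encodes cyclin D1, the D cyclin most often linked to regrowth of the liver. It had 5031 counts in Prom1+CD49f+CD45- cells, 932 in Prom1-CD49f+CD45- cells, 1430 under the label Prom1+CD49f+CD45+ and 2850 in presorted CD45- cells. Scaled to depth, these were 146.8 (142.7 to 150.9), 65.9 (61.7 to 70.2), 57.6 (54.6 to 60.6) and 64.2 (61.8 to 66.6) CPM. The first library stood above the other 3, which lay within 10 CPM of each other. Against the Prom1-CD49f+CD45- cells the ratio was 2.23 (2.08 to 2.39), and it was 2.55 (2.40 to 2.70) against the library labelled Prom1+CD49f+CD45+. The Prom1-CD49f+CD45- and presorted libraries did not differ in Ccnd1 beyond counting error, at a ratio of 1.03 (0.95 to 1.11). The difference from the Prom1-CD49f+CD45- cells was close to the 2-fold line: the ratio was 1.98 with DESeq2 size factors, 1.99 in the authors' normalized values and 2.12 after removal of a trend with gene length, and none of these was called. Cholangiocyte markers were also highest in the Prom1+CD49f+CD45- library, 9 of 15 being called higher and none lower than in the Prom1-CD49f+CD45- library, and their part in the Ccnd1 level was not tested.

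The exons of Ccnd1 share 1100 bases, 23.4% of their merged length, with LTO1 on the opposite strand. No source used here states whether the authors counted by strand, so reads in that stretch cannot be assigned with certainty. LTO1 itself held 540, 224, 465 and 816 counts, or 15.8, 15.8, 18.7 and 18.4 scaled CPM. The ratio of Ccnd1 to LTO1 counts within a library was 9.32 (8.52 to 10.2), 4.16 (3.59 to 4.84), 3.08 (2.77 to 3.42) and 3.49 (3.23 to 3.78). Since LTO1 varied little in scaled CPM, this ratio largely repeats the Ccnd1 levels. It cannot tell which gene the reads in the shared stretch came from.

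Ccnd2 (ENSMUSG00000000184; chromosome 6, 127125162 to 127152193, minus strand) encodes cyclin D2 and gave the most counts of the 10 genes in 3 of the 4 libraries. It had 10818, 4084, 6102 and 8012 counts, or 315.6 (309.7 to 321.6), 288.6 (279.8 to 297.5), 245.7 (239.6 to 251.9) and 180.4 (176.5 to 184.4) scaled CPM. The 3 sorted libraries were close to one another and the presorted library was lowest. The ratio of Prom1+CD49f+CD45- to Prom1-CD49f+CD45- cells was 1.09 (1.05 to 1.13), and its direction depended on the scaling, since it was 0.97 with DESeq2 size factors and 0.84 after removal of the length trend. Against the presorted cells it was 1.75 (1.70 to 1.80), not called.

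Ccnd3 (ENSMUSG00000034165; chromosome 17, 47505051 to 47599691, plus strand) encodes cyclin D3, best known from lymphocyte growth. It had 2026, 1986, 4287 and 8427 counts, or 59.1 (56.6 to 61.7), 140.3 (134.2 to 146.6), 172.6 (167.5 to 177.9) and 189.7 (185.7 to 193.8) scaled CPM. Its order was the reverse of that of Ccnd2, lowest in the Prom1+CD49f+CD45- and highest in the presorted cells, and no neighbours in that order overlapped within counting error. The Prom1+CD49f+CD45- library was 2.37-fold (2.23 to 2.53) below the Prom1-CD49f+CD45- library and 2.92-fold (2.77 to 3.08) below the library labelled Prom1+CD49f+CD45+. With library totals in place of TMM the first of these ratios was 0.495, no longer called. Bysl on the opposite strand shares 361 bases of exon with Ccnd3, 4.11% of its length.

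The summed level of the 3 D cyclin genes varied little, at 521, 495, 476 and 434 scaled CPM, while its make-up differed. Ccnd1 made up 28.1% (27.5 to 28.8, exact Clopper-Pearson interval) of the D cyclin counts in the Prom1+CD49f+CD45- library, against 13.3%, 12.1% and 14.8% in the other 3. Ccnd3 made up 11.3% (10.9 to 11.8) there, against 28.4%, 36.3% and 43.7%. Ccnd2 was the largest share by counts in the 3 sorted libraries, at 60.5%, 58.3% and 51.6%, and came after Ccnd3 in the presorted library, at 41.5%. Per kilobase of merged exon, Ccnd1 and Ccnd2 held 43.6% and 46.9% of the Prom1+CD49f+CD45- sum and Ccnd3 9.43%. In the Prom1-CD49f+CD45- library the same per-kilobase shares were 23.1%, 50.6% and 26.4%. The length used merges the exons of all annotated transcripts of a gene, 3 for Ccnd1, 8 for Ccnd2 and 21 for Ccnd3. It can exceed the length of the transcripts present, unequally between genes, so comparisons between genes are approximate. The per-kilobase scale also assumes reads along the whole transcript. A stranded kit of that kind is given in the labels, but Quant-seq, a method that reads transcript ends, is in the title of the series, and which applies was not resolved.

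Ratios of counts within 1 library do not depend on how libraries are scaled. There were 2.48 (2.36 to 2.62) Ccnd1 counts for each Ccnd3 count in the Prom1+CD49f+CD45- library, against 0.469 (0.434 to 0.508), 0.334 (0.314 to 0.354) and 0.338 (0.324 to 0.353) in the other 3. The ratio of Ccnd2 to Ccnd3 was 5.34 (5.09 to 5.60), 2.06 (1.95 to 2.17), 1.42 (1.37 to 1.48) and 0.951 (0.922 to 0.980). On both measures the Prom1+CD49f+CD45- library lay outside the counting intervals of the rest.

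**Figure D2:**
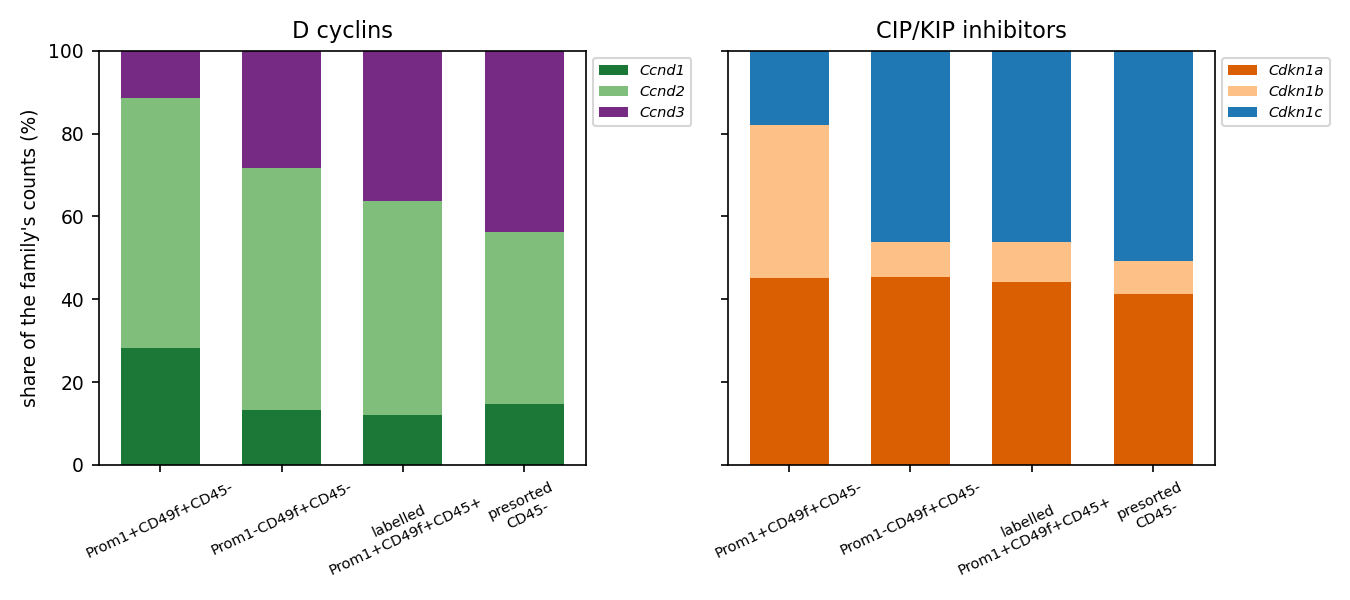
Share (%) of the summed counts of the D cyclin genes (left) and of the CIP/KIP inhibitor genes (right) held by each gene in the 4 libraries; counts are not divided by gene length. In the Prom1+CD49f+CD45- library Ccnd3 holds 11.3% and Cdkn1c 17.8%, the smallest shares of these genes among the 4 libraries.

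Ccnd3 has 2 annotated starts in the RefSeq promoter table (GRCm38.p6), 88416 bases apart, and both feed the same row of counts. The 120 bases before each are shown because Ccnd3, with Cdkn1a, is among the genes called lower. Capitals mark matches on either strand to the GC box (GGGCGG) and the CCAAT box (CCAAT), which occur in 35.7% and 37.4% of 32851 windows of 300 bases around annotated starts. The upstream stretch is chr17:47504931-47505050 and the downstream one chr17:47593347-47593466, both on the plus strand.
Ccnd3 upstream start: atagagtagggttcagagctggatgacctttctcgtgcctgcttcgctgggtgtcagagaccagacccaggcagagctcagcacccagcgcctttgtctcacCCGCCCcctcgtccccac
Ccnd3 downstream start: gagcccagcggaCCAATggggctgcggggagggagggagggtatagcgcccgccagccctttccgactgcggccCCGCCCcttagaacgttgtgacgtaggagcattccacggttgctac
The first holds 1 GC box match and the second 1 of each kind. A match describes these letters and does not show that a factor binds there.

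Among the CIP/KIP inhibitors, Cdkn1a (ENSMUSG00000023067; chromosome 17, 29090976 to 29100727, plus strand) encodes p21, the inhibitor that p53 induces after DNA damage. It had 877, 1412, 1496 and 2098 counts, or 25.6 (23.9 to 27.3), 99.8 (94.6 to 105.1), 60.2 (57.2 to 63.4) and 47.2 (45.2 to 49.3) scaled CPM. The Prom1-CD49f+CD45- cells were highest and the Prom1+CD49f+CD45- cells lowest, with no overlap between any pair. The difference between those 2 sorted populations was 3.90-fold (3.58 to 4.25), and it was called under every scaling tried. The Prom1+CD49f+CD45- cells were also called lower, 2.35-fold (2.16 to 2.56), than the library labelled Prom1+CD49f+CD45+. Against presorted cells they were 1.85-fold lower and not called, with an interval that began at 1.71-fold. An opposite-strand transcript of uncertain status, AC167363.2, shares 273 bases of exon with Cdkn1a, 7.68% of its length.

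The RefSeq table gives Cdkn1a 2 starts 2790 bases apart, again counted in 1 row. They are shown because Cdkn1a is the textbook p53 target among the members. Capitals mark p53 half-sites in the first stretch (chr17:29090859-29090978, plus strand) and GC boxes in the second (chr17:29093649-29093768, plus strand). A p53 half-site, matched by its consensus of 10 bases, occurs in 8.36% of all 32851 windows.
Cdkn1a upstream start: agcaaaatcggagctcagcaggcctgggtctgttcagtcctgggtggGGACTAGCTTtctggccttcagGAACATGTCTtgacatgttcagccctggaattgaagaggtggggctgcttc
Cdkn1a downstream start: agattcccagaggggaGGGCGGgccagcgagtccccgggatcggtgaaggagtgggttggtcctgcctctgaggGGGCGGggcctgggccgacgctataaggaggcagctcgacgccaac
The matches in the first stretch begin 73 and 51 bases before the annotated start, and no half-site was found in the window of the second. These letters do not show which start gave the counted reads.

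Cdkn1b (ENSMUSG00000003031; chromosome 6, 134920401 to 134925513, plus strand) encodes p27, an inhibitor linked to quiescence and regulated mostly by protein turnover. It had 720, 261, 328 and 403 counts, or 21.0 (19.5 to 22.6), 18.4 (16.3 to 20.8), 13.2 (11.8 to 14.7) and 9.07 (8.21 to 10.0) scaled CPM. Both CD49f+CD45- libraries were high and did not differ beyond counting error, at a ratio of 1.14 (0.987 to 1.32). Against the presorted cells, Cdkn1b was called higher in Prom1+CD49f+CD45- cells, 2.31-fold (2.05 to 2.62). That call was lost (2.25-fold) when TMM was computed over all genes with a count, an alternative added after the data were seen. Cdkn1b was thus the CIP/KIP gene that was not lowest in the Prom1+CD49f+CD45- library.

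Cdkn1c (ENSMUSG00000037664; chromosome 7, 143458339 to 143461050, minus strand) encodes p57, an imprinted inhibitor. It had 347, 1437, 1569 and 2580 counts, or 10.1 (9.09 to 11.2), 101.5 (96.3 to 106.9), 63.2 (60.1 to 66.4) and 58.1 (55.9 to 60.4) scaled CPM. The Prom1+CD49f+CD45- library lay far below the other 3. It was 10.0-fold (8.91 to 11.3) below the Prom1-CD49f+CD45- library, 6.24-fold (5.55 to 7.03) below the library labelled Prom1+CD49f+CD45+ and 5.74-fold (5.13 to 6.44) below presorted cells. After removal of the length trend the ratio to the Prom1-CD49f+CD45- cells moved from 0.0997 to 0.154, still called. The antisense gene Gm44732 shares 625 bases with the Cdkn1c exons, 30.7% of their length, and without strand the reads there cannot be told apart.

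The 3 genes called lower in the Prom1+CD49f+CD45- cells were low in the library with the fewest endothelial transcripts. All 15 endothelial markers were called lower there than in each of the other 3 libraries. Summed levels of 10 neutrophil markers (43.6, 98.4, 898 and 1618 scaled CPM) and 12 Kupffer cell and macrophage markers (92.6, 158, 222 and 1118) were lowest there too. Those of cholangiocyte, hepatocyte, stellate and fibroblast, mesothelial and lymphocyte markers were not, but sums and single markers differed. Against the Prom1-CD49f+CD45- cells, 9 of 13 stellate and fibroblast markers were called lower and 0 higher. Of 8 mesothelial markers 5 were lower and 1 higher, and of 15 hepatocyte markers 8 were lower and 3 higher. Of 13 lymphocyte markers 1 was lower and 3 higher, and of 15 cholangiocyte markers 0 were lower and 9 higher. Of all genes 12.8% were called lower and 15.5% higher. The part of these cell types in the levels of Ccnd3, Cdkn1a and Cdkn1c was not tested. In these bulk libraries fewer cells of a type and less RNA per cell cannot be told apart.

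Likeness of pattern was taken as the distance between log2(CPM + 0.5) levels over the 4 libraries, each centred on its own mean, among 14710 genes. It is a description of 4 libraries and says nothing of shared function. The added 0.5 narrows differences at low levels, so a gene with levels near or below it can rank close to a member whose ratios are smaller. Nearest to Cdkn1c were Efnb1 (40.2, 413, 261 and 250 scaled CPM, distance 0.115) and the low Hoxb6 (0.117, 6.01, 3.58 and 3.02, distance 0.120). Nearest to Cdkn1a were Vamp5 (57.9, 235, 125 and 103, distance 0.137) and the low Spaar (0.292, 2.61, 1.29 and 0.788, distance 0.154). Nearest to Ccnd3 were Atp6v0d1 (11.3, 27.7, 33.1 and 34.6, distance 0.088) and the low Treml2 (0.0875, 0.848, 1.25 and 1.49, distance 0.092). Ccnd1 was nearest to Aph1c (0.040) and Bclaf3 (0.053), and Ccnd2 to Sltm (0.011) and Ccdc62 (0.036). The genes nearest to Cdkn1b were the low Gsto2 (1.08, 0.989, 0.564 and 0.225, distance 0.075) and Ankrd52 (0.078). For Cdkn2b they were Zfp688 (0.047) and Casp6 (0.071), for Mdm2 Ogg1 (0.028) and Smarcd2 (0.028) and for Trp53 Nagk (0.032) and Hmgb1 (0.066). Among the members themselves the closest pair was Ccnd2 and Cdkn1b, at 0.306.

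The summed level of the CIP/KIP genes was 56.7, 220, 137 and 114 scaled CPM, lowest in the Prom1+CD49f+CD45- and highest in the Prom1-CD49f+CD45- cells. Cdkn1a held a like share of their counts in every library, between 41.3% and 45.4%. Cdkn1b held 37.0% (34.9 to 39.2) in the Prom1+CD49f+CD45- library against 8.39%, 9.67% and 7.93% in the others, and Cdkn1c 17.8% (16.2 to 19.6) against 46.2%, 46.2% and 50.8%. Within a library there were 0.482 (0.423 to 0.549) Cdkn1c counts per Cdkn1b count in the Prom1+CD49f+CD45- cells and 5.51 (4.82 to 6.31), 4.78 (4.24 to 5.40) and 6.40 (5.76 to 7.13) in the other 3. Cdkn1c counts outnumbered those of Cdkn1b in every library but that one, a comparison that needs no scaling between libraries.

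**Figure D3:**
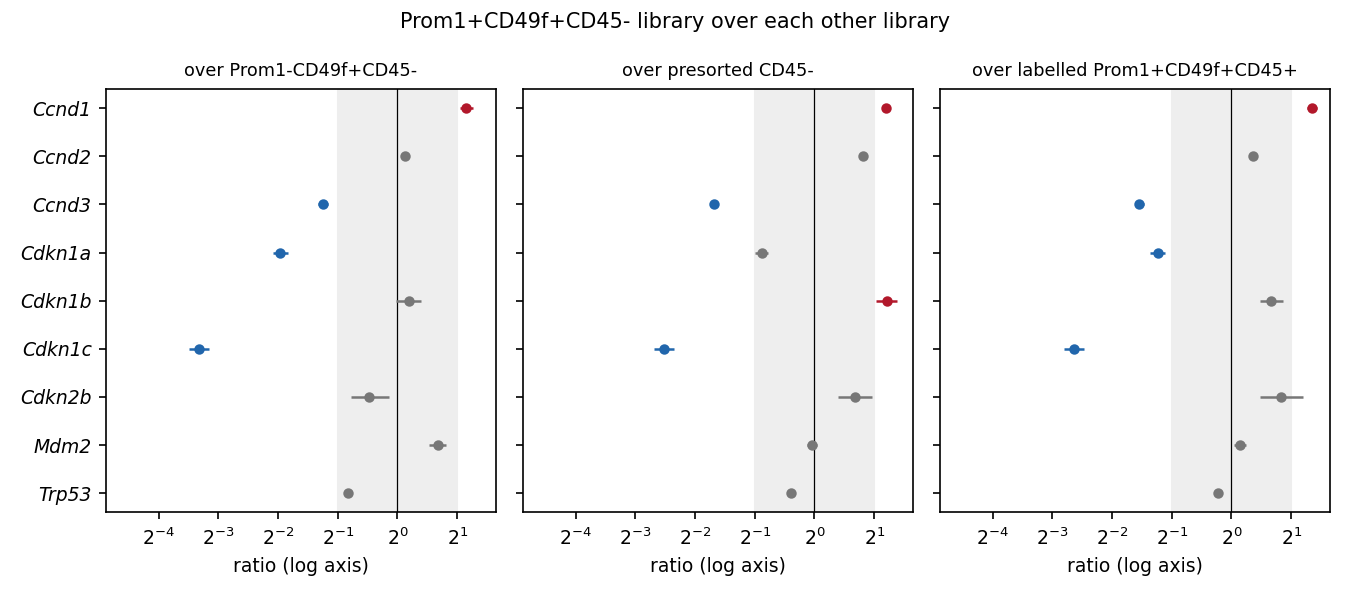
Ratio (log axis) of the Prom1+CD49f+CD45- library to each of the other 3 for the 9 genes with enough counts, with exact 95% intervals for counting error; grey marks the range within 2-fold, red a gene called higher and blue one called lower. Cdkn1c lies farthest from 1 in each panel, 10.0-fold, 5.74-fold and 6.24-fold lower from left to right.

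The INK4 genes lie side by side on chromosome 4. Cdkn2b (ENSMUSG00000073802; 89306299 to 89311039, minus strand) encodes p15, an inhibitor induced by transforming growth factor beta. It had 231, 132, 94 and 187 counts, or 6.74 (5.90 to 7.67), 9.33 (7.80 to 11.1), 3.78 (3.06 to 4.63) and 4.21 (3.63 to 4.86) scaled CPM. Both CD49f+CD45- libraries were above the other pair, whose members did not differ beyond counting error (ratio 0.899, 0.694 to 1.16). Cdkn2b was called in none of the 5 comparisons on TMM-scaled counts. Its ratio between Prom1+CD49f+CD45- and Prom1-CD49f+CD45- cells, 0.723 (0.581 to 0.902), turned to 1.31 after removal of the length trend.

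Cdkn2a (ENSMUSG00000044303; 89274471 to 89294653, minus strand) encodes 2 unrelated proteins from separate first exons, the INK4 inhibitor p16 and Arf, which holds back Mdm2. It had 0, 3, 6 and 8 counts. In the Prom1+CD49f+CD45- library 3 counts would be 0.0875 scaled CPM and the exact upper bound of the count of 0 was 0.108. The other libraries were at 0.212 (0.0437 to 0.619), 0.242 (0.0887 to 0.526) and 0.180 (0.0778 to 0.355). The last 3 did not differ beyond counting error. A low-level reference was a set of 1470 olfactory, vomeronasal and trace amine-associated receptor genes, of which 69.3%, 27.0%, 69.3% and 12.4% had a count. Low counts were thus spread unevenly over the libraries. The bound taken was the level below which 95% of these genes lay. In the Prom1-CD49f+CD45- library and the one labelled Prom1+CD49f+CD45+ Cdkn2a lay under this bound, at 0.353 and 1.09 scaled CPM. That bound was 0.817 in the Prom1+CD49f+CD45- library and 0.0450 in the presorted library, where Cdkn2a lay above it. Senescence in liver is often read from p16, and here the row was near the limit of detection in all 4 libraries.

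The starts of the Cdkn2a transcripts lie 12427 bases apart, and their reads share 1 row, so p16 and Arf could not be separated. The 120 bases before each are shown because the row holds both transcripts. The first is chr4:89294620-89294739 and the second chr4:89282193-89282312, both read on the minus strand. Capitals mark GC boxes and, in the first, an E2F match (TTTCCCGC). The 4 words TTTGGCGC, TTTCCCGC, TTTCGCGC and TTTGCCGC searched for E2F occur in 2.26% of all windows.
Cdkn2a upstream start: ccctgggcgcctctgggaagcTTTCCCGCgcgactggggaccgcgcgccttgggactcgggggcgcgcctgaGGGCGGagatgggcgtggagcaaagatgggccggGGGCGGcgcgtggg
Cdkn2a downstream start: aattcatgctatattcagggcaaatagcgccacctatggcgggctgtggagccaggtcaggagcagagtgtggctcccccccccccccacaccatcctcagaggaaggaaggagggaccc
The first stretch holds 2 GC boxes and the E2F match. The second holds none of the motifs searched, which says only that these letters are not in it.

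Trp53 (ENSMUSG00000059552; chromosome 11, 69580359 to 69591873, plus strand) had 4210, 3081, 3559 and 7138 counts, or 122.8 (119.1 to 126.6), 217.7 (210.1 to 225.5), 143.3 (138.6 to 148.1) and 160.7 (157.0 to 164.5) scaled CPM. The Prom1-CD49f+CD45- cells were highest and the Prom1+CD49f+CD45- cells lowest, 1.77-fold (1.69 to 1.86) apart and not called. Per kilobase of merged exon it was the highest of the 10 genes in 3 libraries, at 53.8, 35.4 and 39.7 scaled CPM per kilobase. In the Prom1+CD49f+CD45- library it stood behind Ccnd1 and Ccnd2, at 30.4 against 31.2 and 33.5. That order rests on the merged lengths and on reads along the whole transcript, which was not resolved. By counts Ccnd2 stood above Trp53 in every library. Protein stability sets most of the activity of p53, so the transcript level does not report it.

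Mdm2 (ENSMUSG00000020184; chromosome 10, 117688875 to 117710758, minus strand) had 2018, 523, 1323 and 2692 counts, or 58.9 (56.3 to 61.5), 37.0 (33.9 to 40.3), 53.3 (50.4 to 56.2) and 60.6 (58.3 to 62.9) scaled CPM. It had the smallest range over the libraries of the 9 genes, 1.63-fold on the log2(CPM + 0.5) scale, and 13.0% of genes had a smaller one. The Prom1-CD49f+CD45- cells were lowest. The Prom1+CD49f+CD45- and presorted libraries did not differ beyond counting error, at a ratio of 0.971 (0.916 to 1.03). Mdm2 in Prom1+CD49f+CD45- cells was 1.59-fold (1.45 to 1.76) above the Prom1-CD49f+CD45- cells, not called.

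The 2 p53 targets among the members thus lay in opposite order in the CD49f+CD45- libraries. There were 2.30 (2.12 to 2.49) Mdm2 counts per Cdkn1a count in the Prom1+CD49f+CD45- library and 0.370 (0.334 to 0.410) in the Prom1-CD49f+CD45- library. The ratio was 0.884 (0.821 to 0.953) under the label Prom1+CD49f+CD45+ and 1.28 (1.21 to 1.36) in presorted cells. Relative to Trp53, Cdkn1a counts were 0.208 (0.193 to 0.224), 0.458 (0.430 to 0.488), 0.420 (0.395 to 0.447) and 0.294 (0.280 to 0.309). Mdm2 counts relative to Trp53 were 0.479 (0.454 to 0.506), 0.170 (0.154 to 0.186), 0.372 (0.349 to 0.396) and 0.377 (0.361 to 0.394). The Prom1+CD49f+CD45- library was lowest on the first of these ratios and highest on the second, and the Prom1-CD49f+CD45- library was the reverse.

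**Figure D4:**
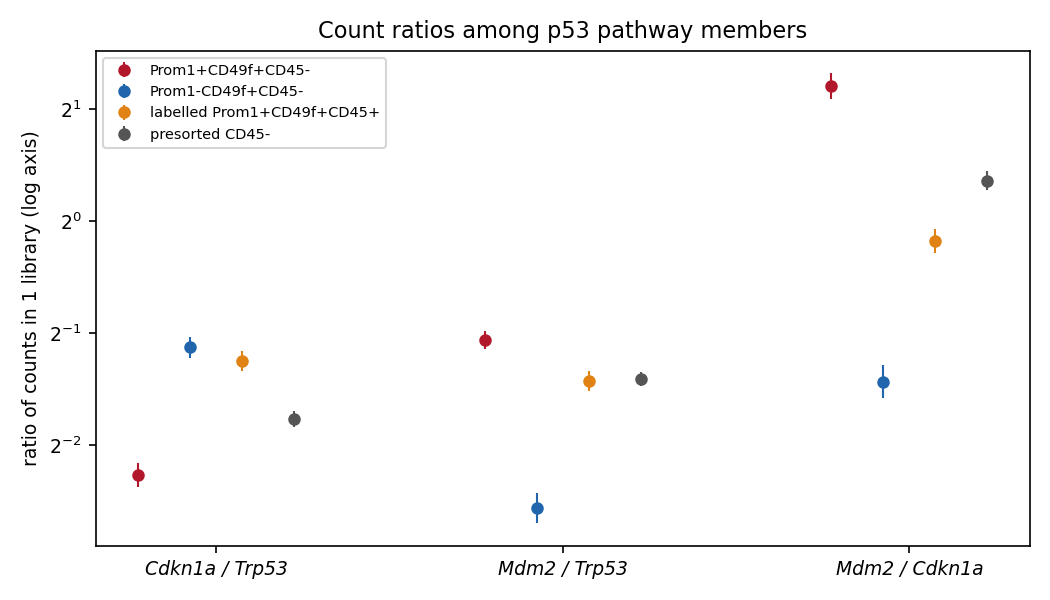
Ratios of counts within each library (log axis) among Cdkn1a, Mdm2 and Trp53, with exact 95% intervals for counting error; gene lengths are not corrected for, so only libraries can be compared. The Mdm2 to Cdkn1a ratio runs from 0.370 in the Prom1-CD49f+CD45- to 2.30 in the Prom1+CD49f+CD45- library.

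The Mdm2 start in the RefSeq table is shown beside those of Cdkn1a because Mdm2 is the other p53 target among the members. The stretch is chr10:117710759-117710878, read on the minus strand, and capitals mark 2 GC boxes and 1 CCAAT box.
Mdm2 start: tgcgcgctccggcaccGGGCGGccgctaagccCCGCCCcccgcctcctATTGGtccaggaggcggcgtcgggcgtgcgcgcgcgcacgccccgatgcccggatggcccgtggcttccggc
A p53 half-site match lies outside it, 186 bases before the annotated start. The window searched ran from 250 bases before this start to 50 after it. Other promoters or p53 sites of the gene were therefore not searched. Whether these letters bear on the levels was not tested. RefSeq windows were found for 7 of the 10 members, with Ccnd1, Ccnd2 and Cdkn1c not matched.

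Against the presorted cells, 4 of 9 members were called in the Prom1+CD49f+CD45- library, Ccnd1 and Cdkn1b higher and Ccnd3 and Cdkn1c lower, where 43.2% of all genes were called (27.5% higher and 15.6% lower). Ccnd1 was 2.29-fold higher (2.18 to 2.40), and Ccnd3 was 3.21-fold (3.06 to 3.37) lower. Ccnd2 joined those called higher with library totals (ratio 2.33). Against the library labelled Prom1+CD49f+CD45+, 4 of 9 were called (25.6% of all genes, 12.5% higher and 13.1% lower), the same members as against the Prom1-CD49f+CD45- cells. These 2 comparisons and the one with the Prom1-CD49f+CD45- cells share the Prom1+CD49f+CD45- library.

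No member was called between the Prom1-CD49f+CD45- and presorted cells, where 23.9% of genes were (9.77% higher and 14.1% lower). None was called either between presorted cells and the library labelled Prom1+CD49f+CD45+, where 35.9% of genes were (23.8% higher and 12.1% lower). In the first of these, 4 inhibitor genes had ratios near 2: Cdkn1a 2.11 (1.97 to 2.26), Cdkn1b 2.03 (1.73 to 2.38), Cdkn2b 2.22 (1.76 to 2.78) and Cdkn1c 1.75 (1.64 to 1.87). Cdkn1a was called higher there with DESeq2 size factors (2.37) and library totals (2.40). In the authors' normalized values, which carry no counting interval, all 4 were past 2-fold, at 2.74, 2.64, 2.88 and 2.27, as was Ccnd2 at 2.08. After removal of the length trend, Cdkn1c was at 1.11 and Cdkn2b at 1.19. In the second, member ratios lay between 0.879 (Mdm2) and 1.46 (Cdkn1b). The median log2 ratio of the 9 members was 0.68 between Prom1-CD49f+CD45- and presorted cells, beside -0.01 for all genes, and -0.47 beside 0.31 between Prom1+CD49f+CD45- and Prom1-CD49f+CD45- cells.

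A list of 8 genes held those of the D cyclin partners CDK4 and CDK6, the other INK4 inhibitors and proteins that act on these kinases. Of these, the INK4 gene Cdkn2d, which encodes p19Ink4d, was called between Prom1+CD49f+CD45- and Prom1-CD49f+CD45- cells. It was at 8.23, 34.4, 19.6 and 22.7 scaled CPM. It was lower in the Prom1+CD49f+CD45- cells (4.18-fold, 3.60 to 4.86), as it was against the other libraries. Of all genes 12.8% were called lower against the Prom1-CD49f+CD45- cells, 15.6% against presorted cells and 13.1% against the library labelled Prom1+CD49f+CD45+. A count of 1 in 8 is near each of these shares. The list's median log2 ratio against the Prom1-CD49f+CD45- cells was -0.64, beside 0.31 for all genes. Cdk4, the main partner of D cyclins, was at 170, 284, 199 and 209, and Cdc37, the chaperone adaptor for CDK4, at 92.2, 191, 115 and 158. Neither was called in any comparison with the Prom1+CD49f+CD45- library.

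Downstream of the D cyclins, 2 of 17 genes of the RB and E2F list were called higher and none lower in Prom1+CD49f+CD45- against Prom1-CD49f+CD45- cells (median 0.25), where 15.5% of all genes were higher and 12.8% lower. The count is near that background. The 2 were the pocket protein gene Rbl2 (61.2, 11.4, 49.3 and 65.5) and the E2F partner gene Tfdp2 (53.3, 22.1, 35.0 and 37.2). Against presorted cells none was higher and 7 were lower (median -0.81, beside 0.02 for all genes, of which 15.6% were lower), among them Rb1 at 28.4, 60.1, 126 and 87.9. Of 6 cyclin E, cyclin A and CDK2 genes, Cdc25a was called higher against the Prom1-CD49f+CD45- cells, at 37.2 against 15.5, and 3 were lower against the presorted cells, including Ccna2 at 8.02 against 40.9. Of 30 proliferation genes 21 were lower and 1 higher (Tyms) against the presorted cells (median -1.75), beside 15.6% and 27.5% of all genes. Against the Prom1-CD49f+CD45- cells 4 were lower (Cdk1, Mcm3, Rrm2 and Ube2c) and none higher (median -0.31), beside 12.8% and 15.5% of all genes and their median of 0.31. Cdk1, the mitotic kinase, was at 6.30, 17.3, 21.0 and 31.4. Cell type markers also differed: neutrophil markers summed to 1618 scaled CPM in the presorted library against 43.6 in the Prom1+CD49f+CD45- library. Kupffer cell and macrophage markers summed to 1118 against 92.6, while the cholangiocyte sum went the other way. The mesothelial sum was also higher in the Prom1+CD49f+CD45- library. Yet 6 of 8 mesothelial markers were called lower there than in presorted cells, and 2, Gpm6a and Krt8, were called higher (median -3.75). The part of these cell types in the levels of the proliferation genes was not tested.

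Genes that govern turnover of cyclins and CDK inhibitors were called higher in 3 of 12 and lower in none between Prom1+CD49f+CD45- and Prom1-CD49f+CD45- cells (median 0.41). Of all genes 15.5% were higher and 12.8% lower, with a median of 0.31. The 3 were Ambra1 (48.0 against 12.7), Fbxo31 (51.0 against 18.4) and Dtl (4.90 against 1.48). Ambra1 and Fbxo31 encode substrate receptors of ubiquitin ligases that act on D cyclins. Of 19 measured p53 regulators 3 were higher and 1 lower (median 0.51), a count near the same background. The 4 were Trp53bp1, a damage response adaptor (57.4 against 14.5), Hipk2, a kinase of p53 (154 against 50.9), Rfwd3 (44.1 against 14.1) and, lower, the ribosomal protein gene Rpl11, whose product can bind Mdm2 (167 against 408).

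Other p53 targets moved in both directions. Of 31, 4 were called higher and 5 lower between Prom1+CD49f+CD45- and Prom1-CD49f+CD45- cells, with a positive median (0.48) beside 0.31 for all genes. These counts are near the 15.5% and 12.8% of all genes called higher and lower. The higher ones were Trp53inp1 (234, 46.8, 57.5 and 111), the antiproliferative Btg2 (793, 280, 201 and 169), Tnfrsf10b, a death receptor gene (42.9, 10.2, 55.6 and 3.31), and Perp, a desmosome gene (127, 46.5, 4.47 and 81.0). The lower ones included Fas, another death receptor gene (13.1, 182, 111 and 91.8), Ptp4a3 (19.7, 140, 175 and 147), the proapoptotic Bax (51.6, 162, 91.4 and 91.1) and Plk2 (215, 470, 1334 and 618), with Eda2r (0.904, 4.24, 5.52 and 5.07). Fas was 13.9-fold (12.6 to 15.4) lower, more than Cdkn1a. Against the presorted cells 4 were higher and 9 lower (median -0.69), beside 27.5% and 15.6% of all genes.

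**Figure D5:**
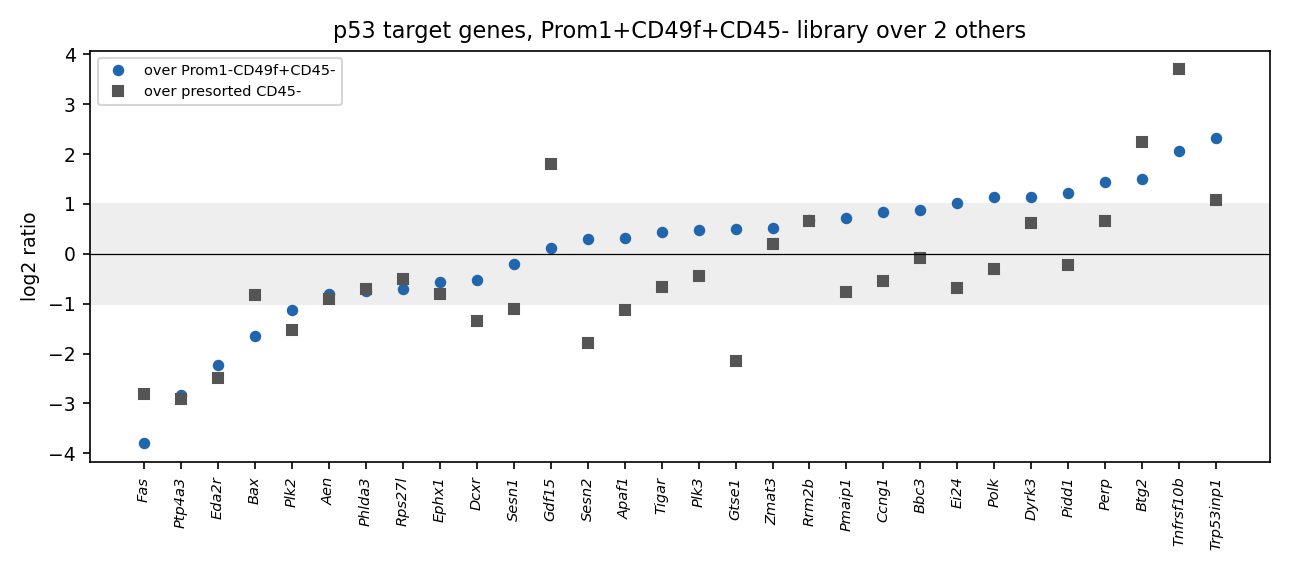
Log2 ratio of the Prom1+CD49f+CD45- library to the Prom1-CD49f+CD45- library (blue circles) and to the presorted library (grey squares) for 30 of the 31 listed p53 targets, ordered by the first; Cd80 had no counts in the Prom1-CD49f+CD45- library and is left out, and grey shading marks ratios within 2-fold. Targets lie on both sides of 0, from Fas, 13.9-fold lower, to Trp53inp1, 4.99-fold higher.

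Of 16 genes often used as signs of senescence, 7 were called lower and 1 higher in Prom1+CD49f+CD45- against Prom1-CD49f+CD45- cells (median -1.13), beside 12.8% and 15.5% of all genes and their median of 0.31. Igfbp5 was at 5.28, 612, 62.5 and 83.4, Il1a at 2.68, 287, 382 and 193 and Igfbp7 at 826, 3832, 4106 and 3424 scaled CPM. The 1 called higher was Lmnb1, a lamin gene whose loss marks senescence, at 22.2, 7.07, 20.5 and 26.3. Igfbp7 is also abundant in endothelium, and the endothelial markers were lowest in the same library, and their part in these levels was not tested.

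Log2 ratios between Prom1+CD49f+CD45- and Prom1-CD49f+CD45- cells went with gene length across 14583 genes (Spearman's rho 0.31, a description, since genes are not replicates). The same measure was -0.31 between Prom1-CD49f+CD45- and presorted cells, 0.04 between Prom1+CD49f+CD45- and presorted cells and -0.004 where the former were set against the library with the CD45+ label. Between that library and the presorted cells it was 0.17. Ccnd2 and Ccnd3, with 9409 and 8775 bases of exon, are the longest members and Cdkn2a, Cdkn2b and Cdkn1c, with 1172, 1390 and 2039, the shortest. Cdkn1a kept its call in the length-corrected values, at a ratio of 0.283.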

How the data were processed

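Per the submitters' processing notes, reads were handled with TopHat2 2.0.8 and Partek 3 on mm10. Their roles and settings and the annotation are not stated there. The authors deposited estimated counts per Ensembl gene (50.5% to 60.5% whole numbers per library) and normalized values, which are CPM plus 1 over a total larger than the summed counts. The estimated counts were rounded and scaled by TMM in edgeR 4.0.16 (R 4.3.3) over genes with at least 10 counts in 1 library. With 1 library per population no test was run. The calling step was run on simulated Poisson counts with known changes and known scaling. These held no spread between animals or libraries, so the run checks only the arithmetic of the interval and the call. Identifiers were named from GENCODE vM21, which gave a symbol to 40254 of 41128, and exon lengths and overlaps come from it. Skp1 and Muc16 of the lists were not matched. Promoters are RefSeq's.

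The members, gene lists, marker lists and settings were chosen with earlier results of these data known. Named besides the members are the 2 genes most like each by pattern and, per list, up to 4 of the highest level and up to 2 of the largest ratio each way per comparison. Bax, Eda2r and Ube2c fall outside that rule and were named after their values were seen. Alternatives were library totals, DESeq2 1.42.0 size factors, the authors' CPM, TMM without the library labelled Prom1+CD49f+CD45+, other count minimums and removal of a length trend.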

Additional observations from a re-analysis of the deposited data

How the results depend on the processing

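Each comparison rests on 1 library of 2 pooled mice per population, so spread between animals is unknown and intervals cover counting error only. Scaling limits every call near 2-fold. Against TMM, library totals shifted all log2 ratios by 0.23 between Prom1+CD49f+CD45- and Prom1-CD49f+CD45- cells, by 0.42 between Prom1+CD49f+CD45- and presorted cells, by 0.18 between Prom1-CD49f+CD45- and presorted cells and by 0.34 for the library labelled Prom1+CD49f+CD45+ against presorted cells. DESeq2 size factors shifted the first by -0.17 and the third by 0.17. Of the genes called between Prom1+CD49f+CD45- and Prom1-CD49f+CD45- cells 54.8% were higher with TMM, 66.9% with library totals, 45.5% with DESeq2 size factors, and 60.7% in the authors' values. Between Prom1-CD49f+CD45- and presorted cells these shares were 40.9%, 52.5%, 51.5% and 65.6%. No paired analysis was possible because each population had 1 library and the labels carry no replicate numbers.

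Members called between Prom1-CD49f+CD45- and presorted cells numbered 0 with TMM, 1 with library totals, 1 with DESeq2 size factors (Cdkn1a in both) and 5 in the authors' normalized values (Ccnd2, Cdkn1a, Cdkn1b, Cdkn1c and Cdkn2b, higher). Those values carry no counting interval and were called on the ratio alone, and they called 11609 genes in place of 6108 between Prom1+CD49f+CD45- and Prom1-CD49f+CD45- cells, 10804 in place of 5171 between Prom1-CD49f+CD45- and presorted cells and 9426 in place of 5542 between Prom1+CD49f+CD45- cells and the library labelled Prom1+CD49f+CD45+. With at least 50 counts required, fewer genes were compared. Between Prom1+CD49f+CD45- and presorted cells 6217 in place of 9342 were called, 3094 in place of 5961 higher and 3123 in place of 3381 lower. Between the library labelled Prom1+CD49f+CD45+ and presorted cells 4277 in place of 7769 were called, 1784 in place of 5150 higher and 2493 in place of 2619 lower. The 27.5% and 23.8% of genes called higher in these comparisons thus rest in large part on genes with fewer than 50 counts in every library. Cdkn1a and Cdkn1c remained called lower against Prom1-CD49f+CD45- cells under every alternative, and the 4 members called against the library labelled Prom1+CD49f+CD45+ were the same under the alternatives run for that comparison, which do not include TMM without that library. In the other comparisons of the CD45- libraries, leaving it out of TMM changed no member's call.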
